A study of Mus musculus with 8 samples.

Results

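Microglia and macrophages are the resident immune cells of the brain, and 47 genes that mark them or carry out their work were examined in the striatum of R6/2 and wild-type (WT) mice. The genes were listed by symbol, and a probe counted for a gene when its name in the scanner files, or in the authors' deposited table, was that symbol. All 47 genes had at least 1 probe, with 63 probes in all, among 25192 named genes on the array. Of these, 45 genes were well above background on all 8 arrays and were tested. Cd163 was above background on 0 arrays and Spi1 on 0 R6/2 arrays and 2 WT arrays, so neither was tested.

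The R6/2 group comprised 4 arrays of striatal total RNA from male mice aged 4 weeks that carry the R6/2 transgene, and the WT group 4 arrays from male mice of the same age with no modification named. R6/2 is a mouse model of Huntington's disease in which a fragment of the human huntingtin gene, with its own promoter and an expanded CAG repeat, is expressed widely and not in one cell type. Each array measured 1 sample in 1 colour. The labels call the samples replicates and do not say that each is 1 animal, so the p-values reflect the scatter among these samples, some of which may be technical.

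Microglia enter the brain in the embryo and renew themselves there. In healthy tissue they survey it under the purinergic and fractalkine receptors P2ry12 and Cx3cr1 and depend on the receptor Csf1r. They engulf debris and synapses that are tagged by complement C1q, through receptors such as Trem2 and its adaptor Tyrobp, and digest the cargo in lysosomes. Border macrophages, which express Mrc1 and Cd163, lie along vessels and in the meninges and choroid plexus. Monocytes and neutrophils of the blood share many myeloid genes with both. Bulk striatal RNA was measured here, so fewer cells of a type and less RNA per cell cannot be told apart.

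One array, WT 3, stood apart from the other 7 for these genes. It was the highest of the 8 arrays for 29 of the 45 tested members (64.4%), against 16.2% of all genes. Over all genes WT 3 was more often the lowest array, in 30.4% of genes, and it was the lowest in 11.1% of members. Members at least 1.5-fold above the mean of the other 3 WT arrays in WT 3 made up 42.2%, against 6.94% of all genes. Across genes it correlated with the other 7 arrays at 0.980 to 0.986, where pairs of arrays of 1 genotype lay at 0.983 to 0.993. The difference of each gene is therefore given with and without WT 3, and so is the median of each list. Further probes of a gene are given with all arrays only. All 8 arrays were on 1 slide in 1 scan, with the R6/2 arrays in 1 row of the slide and the WT arrays in the other, so slide row and genotype cannot be told apart.

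**Figure D1:**
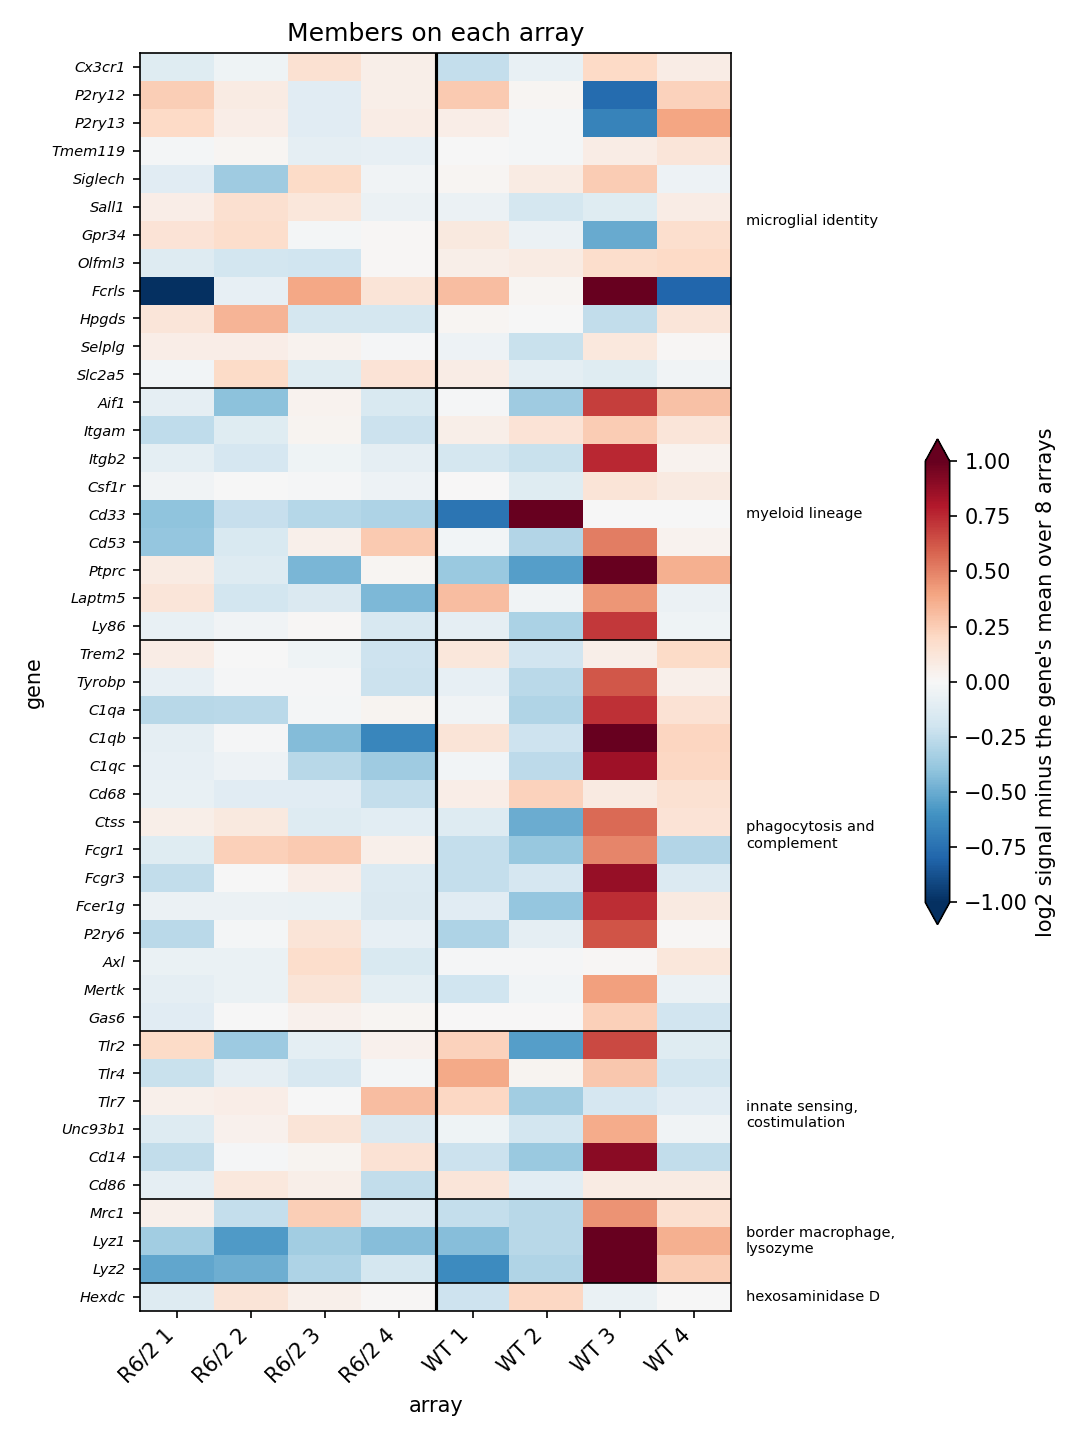
Signal of the 45 tested members (rows, by role) on the 4 R6/2 and 4 WT arrays (columns), as log2 signal minus the gene's mean over the 8 arrays; colours stop at 1 in either direction. WT 3 was the highest array for 29 members, most of them myeloid, phagocytic, complement or lysozyme genes, and the lowest for 5 microglial identity genes.

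None of the microglia and macrophage genes differed between the genotypes past the threshold. With limma and Benjamini-Hochberg adjustment over all 35121 tested probes, 0 of 45 members were called at an adjusted p under 0.05, where 1.91% of all 18115 tested genes were called (346 genes, 84 higher and 262 lower in R6/2). The smallest adjusted p of a member was 0.105, for Cd68. At an unadjusted p under 0.05 there were 3 members, Cd68, Olfml3 and Itgam, which is 3 of 45 where 18.9% of all genes had such a p. The same 3 were the members whose 4 R6/2 arrays all lay below the 4 WT arrays. Over all genes, 6.77% were separated in that direction and 14.4% in either. The Itgam values are those of a probe with a tandem repeat. On the further tested probes of Cd68, Olfml3 and Itgam the groups overlapped, with limma unadjusted p of 0.214 to 0.301. With the replicate number as a block, 283 probes were called over the whole array against 529 without it (1.51% of tested probes), and 0 members in either fit. Compared within same-numbered pairs, R6/2 lay below WT in all 4 pairs for 5 members (Cd68, Olfml3, Itgam, Laptm5 and Aif1), 11.1% of them against 16.9% of all genes, and above WT in all 4 for 0 members, against 21.3% of all genes.

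The members' differences, R6/2 minus WT on the log2 scale, had a median of -0.11, beside 0.02 over all genes. They were negative for 34 of 45 members (75.6%), against 46.2% of all genes. Without WT 3, 0 members were called where 1.83% of all genes were, and 5 members had an unadjusted p under 0.05 where 19.5% of all genes had one. The median without WT 3 was 0.01 and 22 of 45 were negative, and the all-gene median was 0.01. Scaling the arrays on their median in place of the 75th percentile shifted all genes upwards: 26 members were then negative where 32.2% of all genes were, with a median of -0.03 beside 0.10 over all genes. Without WT 3, 18 of the 45 members turned sign. A member's 95% interval reached 0.41 to either side at the median, and from 0.15 to 1.26 over the members. For 26 members the whole interval lay within 1.5-fold of no difference, and for 39 within 2-fold.

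**Figure D2:**
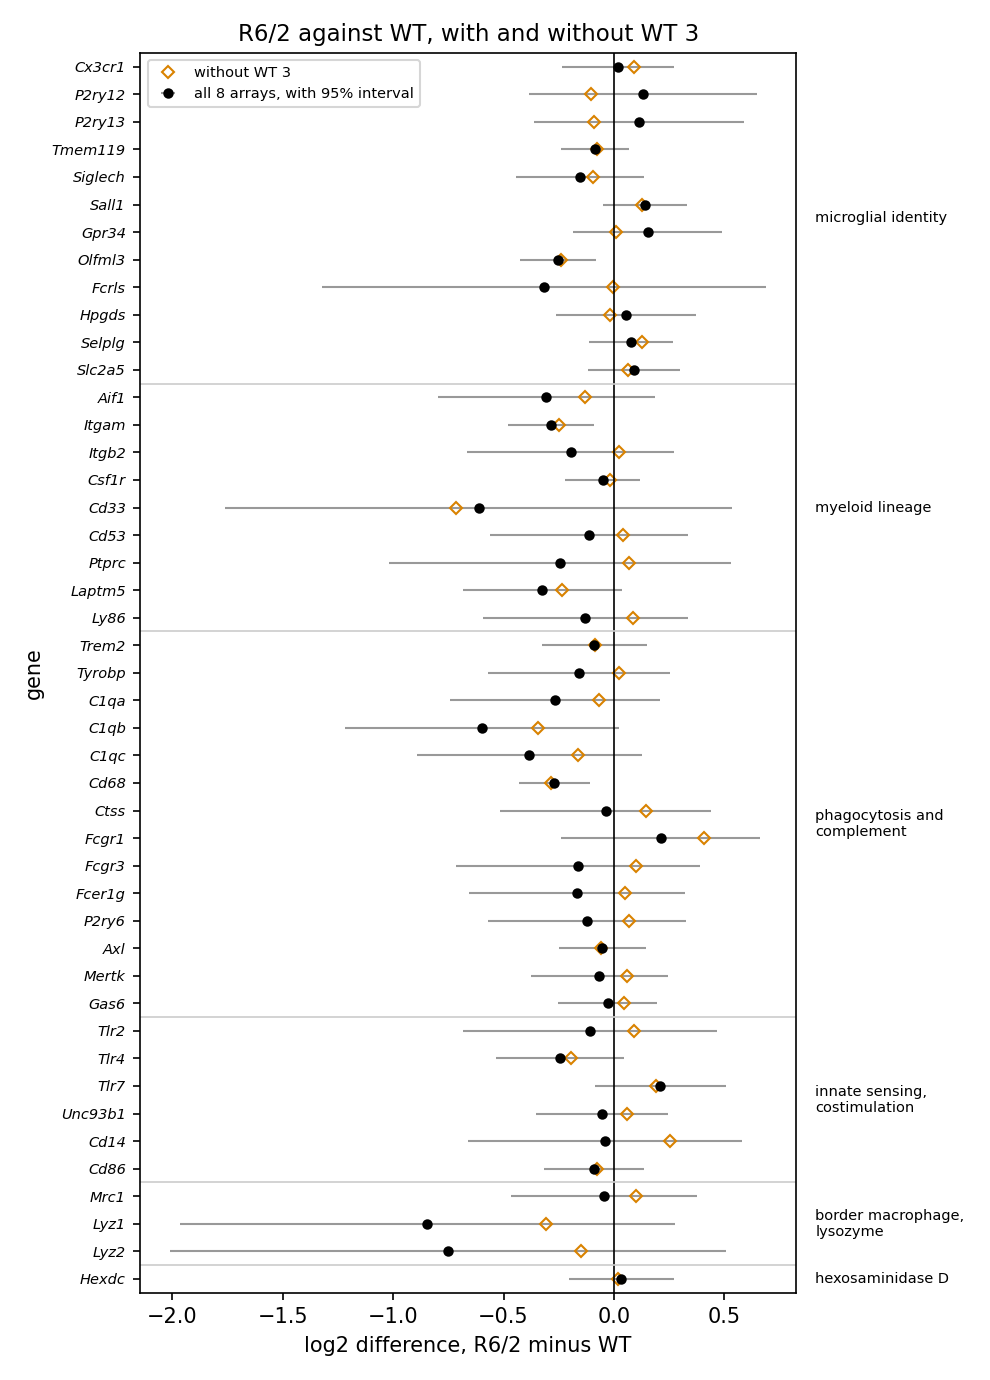
Log2 difference R6/2 minus WT of each tested member with its 95% limma interval over all 8 arrays (filled points, n = 4 per genotype) and without WT 3 (open diamonds), by role. With all arrays 34 of 45 differences were negative, and without WT 3 it was 22 of 45. The intervals of Olfml3, Itgam (on its repeat probe) and Cd68 lay below 0 with all arrays.

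The 12 microglial identity genes were tested in full, and 0 were called. Their median difference was 0.07, with 8 positive and 4 negative, and -0.01 without WT 3. Olfml3, a secreted protein of homeostatic microglia, had the smallest p of the role. Its log2 signal was 0.84, 0.79, 0.77 and 0.98 on the R6/2 arrays, against 1.03, 1.06, 1.15 and 1.17 on the WT arrays. All R6/2 values lay below all WT values, with a difference of -0.25 ± 0.07 (SE, n = 4 per genotype, limma adjusted p = 0.142) and -0.24 without WT 3. The second Olfml3 probe gave -0.41 ± 0.31 with overlapping groups.

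Sall1, a transcription factor that maintains microglial identity, had -0.83, -0.74, -0.78 and -0.96 on the R6/2 arrays, against -0.95, -1.07, -1.02 and -0.82 on the WT arrays. The groups overlapped, and the difference was 0.14 ± 0.08 (limma adjusted p = 0.429) and 0.12 without WT 3. Tmem119, a membrane protein used to tell microglia from blood macrophages, had the narrowest interval of the 45 members. It had 1.04, 1.07, 0.97 and 0.97 in R6/2, against 1.05, 1.03, 1.13 and 1.18 in WT. Its difference was -0.09 with a 95% interval of -0.24 to 0.07, and -0.08 without WT 3. That of the fractalkine receptor gene Cx3cr1 was 0.02 with an interval of -0.24 to 0.27, and 0.09 without WT 3.

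P2ry12 and P2ry13, neighbouring genes on chromosome 3 for purinergic receptors, were described after their values were seen because they ran against the other roles in WT 3. P2ry12 had 1.14, 0.97, 0.78 and 0.95 on the R6/2 arrays, against 1.15, 0.91, 0.12 and 1.12 on the WT arrays. P2ry13 had -0.47, -0.60, -0.78 and -0.59 in R6/2, against -0.60, -0.68, -1.33 and -0.27 in WT. For both genes WT 3 was the lowest array and the other 7 overlapped. The differences were 0.13 for P2ry12 and 0.11 for P2ry13 with all arrays, and -0.10 and -0.09 without WT 3. Gpr34, a lysophospholipid receptor, Hpgds, a prostaglandin D synthase, and Slc2a5, a fructose transporter, were also lowest in WT 3. Cx3cr1, Siglech (on a probe with a tandem repeat), Fcrls and Selplg were highest there on the probes that stand for them. The role thus had no common direction on that array. A further probe of Cx3cr1 and of Siglech was also highest in WT 3. On another Cx3cr1 probe WT 3 was the lowest array, at 0.57. On another Siglech probe it lay below WT 1 (1.32 against 2.08), and on the second Selplg probe below WT 4 (-0.445 against -0.387).

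The remaining identity genes had wide or small differences. Fcrls, an Fc receptor-like protein, differed by -0.32 with an interval of -1.32 to 0.69. It ranged from -1.69 in R6/2 1 to -0.24 in R6/2 3, and from -1.42 in WT 4 to 0.48 in WT 3, and without WT 3 its difference was 0.00. Selplg, the ligand of P-selectin, had 0.08 with all arrays and 0.12 without WT 3, Slc2a5 had 0.09 and 0.07, Hpgds 0.05 and -0.02, and Gpr34 0.15 and 0.01. The smallest limma adjusted p of these 5 with all arrays was 0.647.

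Siglech, a sialic acid-binding lectin of microglia, was measured by 3 probes. Its brightest probe, which stands for the gene, ends in a tandem repeat, and another of its probes has none. Both are shown for this reason, in mm9 coordinates as the scanner files give them, 5′ to 3′, with the tandem run in capitals.
Siglech repeat probe, chr7:63034088-63034147, plus strand: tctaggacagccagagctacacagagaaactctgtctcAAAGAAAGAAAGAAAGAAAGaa
Siglech second probe, chr7:63033826-63033885, plus strand: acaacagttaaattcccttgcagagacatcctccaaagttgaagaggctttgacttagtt

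The repeat probe of Siglech had a mean log2 signal of 6.865 in R6/2 and 7.02 in WT. It gave a difference of -0.15 ± 0.12 (limma adjusted p = 0.582), and -0.10 without WT 3. Whether its signal came from Siglech was not tested, so its difference and its place in WT 3 describe that probe. The second probe gave 0.89, 1.01, 1.13 and 0.93 on the R6/2 arrays, against 1.28, 0.98, 1.58 and 1.42 on the WT arrays, a difference of -0.32 ± 0.13 (adjusted p = 0.265), with WT 2 inside the R6/2 range. The third probe gave 1.14, 1.04, 1.06 and 1.05 in R6/2, against 2.08, 1.19, 1.32 and 1.34 in WT, with no overlap between the groups and a difference of -0.41 ± 0.18 (adjusted p = 0.308). All 3 probes had the same sign and none was called. Runs of 16 or more bases with a repeat unit of up to 4 bases were present in 0.806% of tested probes and in 2 member probes, those of Siglech and Itgam. Repeats of other kinds were not searched for.

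The 10 myeloid lineage genes, which microglia share with monocytes and macrophages, had 9 tested members and 0 called. All 9 differences were negative with all arrays, 8 under median scaling or array weights and 5 without WT 3. The median was -0.24 with all arrays and -0.02 without WT 3, and WT 3 was the highest of the 8 arrays for 8 of the 9. Itgam, the integrin chain CD11b, had 6.04, 6.17, 6.32 and 6.07 on the R6/2 arrays, against 6.35, 6.42, 6.55 and 6.41 on the WT arrays. The groups did not overlap, and the difference was -0.28 ± 0.08 (limma adjusted p = 0.146) and -0.25 without WT 3. These values came from a probe that opens with a CA run, which is shown beside the next brightest Itgam probe for that reason, with the run in capitals.
Itgam repeat probe, chr7:135261755-135261814, plus strand: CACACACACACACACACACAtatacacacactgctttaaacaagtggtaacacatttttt
Itgam second probe, chr7:135260275-135260334, plus strand: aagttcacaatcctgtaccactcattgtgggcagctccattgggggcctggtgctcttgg

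The second Itgam probe had -1.42, -1.97, -1.99 and -1.96 in R6/2, against -1.23, -1.93, -1.61 and -1.68 in WT. The groups overlapped there, and the difference was -0.22 ± 0.18 (limma adjusted p = 0.582). The third probe, at chr7:135212140-135212199, gave -0.49 ± 0.37, with WT 2 at -2.31 and the other 7 arrays between -4.14 and -3.59. The groups were therefore apart on 1 of the 3 Itgam probes, the one with the repeat. Within same-numbered pairs, R6/2 lay below WT in all 4 pairs on the repeat probe and on the second probe, and in 2 of 4 on the third.

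Laptm5, a lysosomal membrane protein of blood-lineage cells, had 0.27, -0.03, 0.01 and -0.30 in R6/2, against 0.46, 0.11, 0.59 and 0.09 in WT. The groups overlapped, with R6/2 below WT in all 4 same-numbered pairs, a difference of -0.32 ± 0.16 (limma adjusted p = 0.341) and -0.23 without WT 3. Its second probe gave -0.37 ± 0.16, also below in all 4 pairs. Csf1r, the receptor that microglia need to survive, differed by -0.05 with a 95% interval of -0.22 to 0.12 (-0.02 without WT 3), and its 3 probes lay between -0.05 and 0.03. A difference of more than 1.5-fold thus lay outside the interval of Csf1r.

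Aif1, the calcium-binding protein IBA1 that is stained to show microglia, differed by -0.31, and by -0.13 without WT 3, with overlapping groups and R6/2 below WT in all 4 pairs. Ptprc, the common leukocyte antigen CD45, differed by -0.24 with all arrays and 0.07 without WT 3. Itgb2, the integrin partner of CD11b, had -0.20 and 0.02, Ly86, a partner of a Toll-like receptor homologue, -0.13 and 0.09, and Cd53, a tetraspanin, -0.11 and 0.04, each with all arrays first. So 4 of these 5 turned sign without WT 3. Cd33, a sialic acid-binding lectin, stood apart on another array, with WT 2 at -0.78 and the other 7 between -3.47 and -2.74, and its difference of -0.61 had an interval of -1.76 to 0.54. Without WT 2 the difference of Cd33 was -0.06, and without WT 3 it was -0.72.

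Spi1 encodes PU.1, the transcription factor that directs the myeloid lineage, and its probe carries the older name Sfpi1. It had -6.02, -5.83, -5.31 and -5.48 on the R6/2 arrays, against -5.22, -5.69, -4.56 and -4.95 on the WT arrays. It was well above background on WT 3 and WT 4 alone, so no fold is given.

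**Figure D3:**
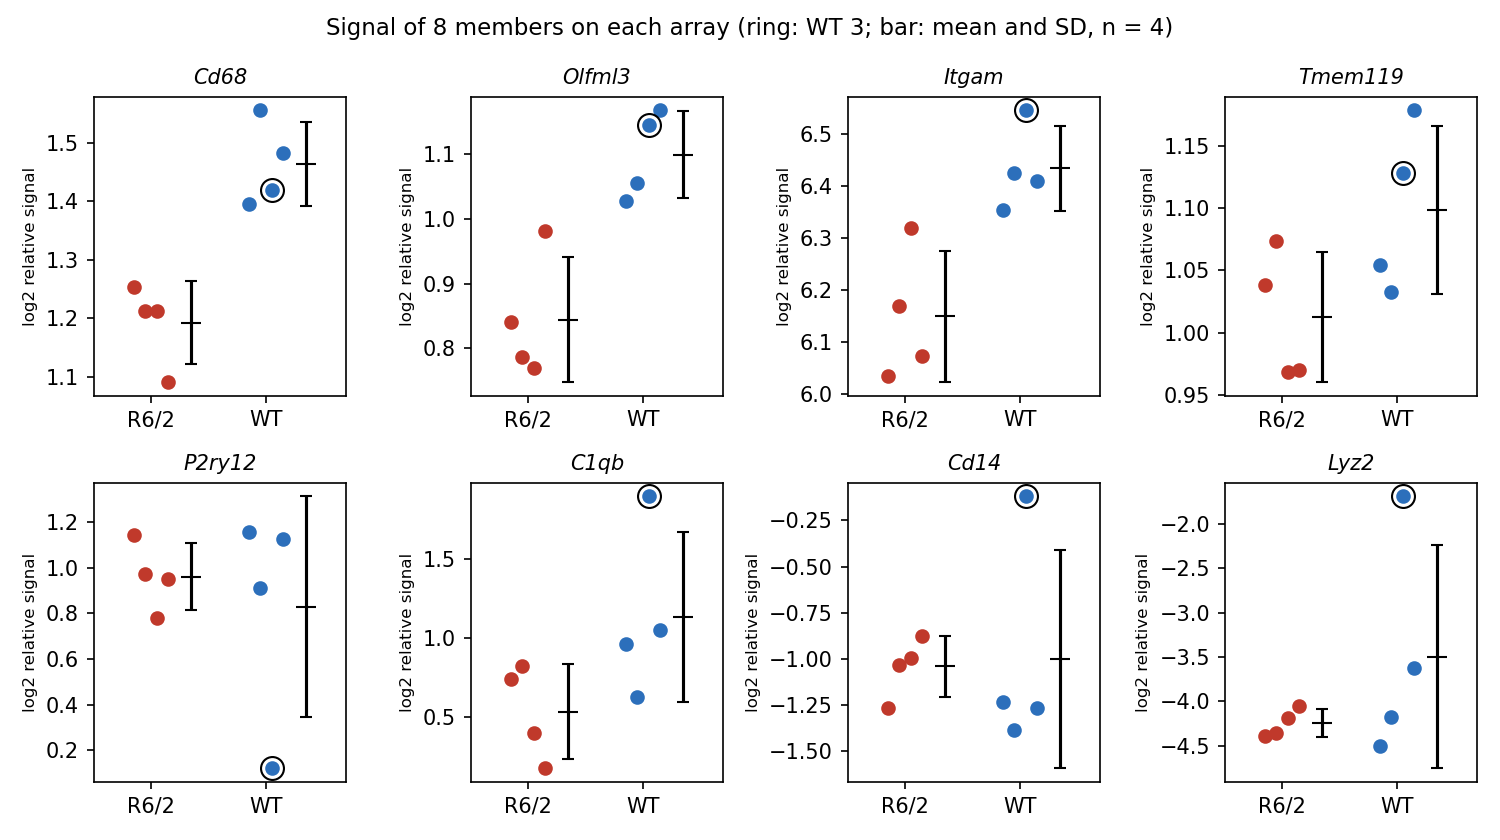
Log2 signal relative to the array's 75th percentile for 8 members, with the 4 R6/2 arrays left of the 4 WT arrays; the bar is the mean with the SD (n = 4), the ring marks WT 3, and each panel has its own axis. Cd68, Olfml3 and Itgam (on its repeat probe) were lower on every R6/2 array than on any WT array. C1qb, Cd14 and Lyz2 were highest and P2ry12 lowest in WT 3.

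Of the 14 phagocytosis and complement genes, 0 were called. With all arrays 13 differences were negative and the median was -0.14. Under median scaling or array weights 9 were negative, and without WT 3 it was 6, with a median of 0.03. WT 3 was the highest array for 11 of the 14, the exceptions being Trem2, Cd68 and Axl. Cd68, a lysosomal glycoprotein of phagocytes, had the smallest p of all members. It had 1.25, 1.21, 1.21 and 1.09 on the R6/2 arrays, against 1.40, 1.56, 1.42 and 1.48 on the WT arrays. Every R6/2 value lay below every WT value, and WT 3 was among the lower WT values. The difference was -0.27 ± 0.07 (SE, n = 4 per genotype, limma adjusted p = 0.105), with a 95% interval of -0.43 to -0.11, and -0.28 without WT 3 (adjusted p = 0.115). Over 18 settings, the one reported included, it ran from -0.29 to -0.19 with adjusted p of 0.063 to 0.324. The second, dimmer Cd68 probe gave -0.20 ± 0.18 with overlapping groups, and the authors' deposited table gave a corrected p of 0.11 for the brighter probe.

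C1qa, C1qb and C1qc encode the chains of complement C1q, which microglia supply to the brain, and lie side by side on chromosome 4. C1qb had 0.74, 0.82, 0.40 and 0.18 in R6/2, against 0.96, 0.63, 1.89 and 1.05 in WT. Its difference was -0.60 ± 0.27 (limma adjusted p = 0.313) and -0.34 without WT 3 (adjusted p = 0.389). C1qa, chosen after its values were seen, had 1.27, 1.28, 1.53 and 1.57 in R6/2, against 1.51, 1.24, 2.28 and 1.69 in WT. All 3 chains were highest in WT 3, and on the other 7 arrays the groups overlapped. C1qc had 1.95, 1.98, 1.76 and 1.68 in R6/2, against 2.01, 1.77, 2.88 and 2.24 in WT. The differences were -0.27 for C1qa and -0.38 for C1qc with all arrays, and -0.07 and -0.16 without WT 3. On 7 arrays some of the spots of C1qc carried a quality mark and were left out of its mean.

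PU.1 binds DNA at a purine-rich core, so the promoters of the members were searched for GAGGAA on either strand. Promoters are those of RefSeq on build GRCm38.p6, each of 300 bases around a gene's start, and 33 of the 47 members matched, with 38 promoters. GAGGAA or its reverse complement TTCCTC was in 20 of these 38 (52.6%), against 28.3% of all 32851 promoters. The longer form GAGGAAGT, every match of which also holds GAGGAA, was in 4 (10.5%), those of Ctss, Cd53, C1qc and Hpgds, against 3.20% of all. The promoters of C1qb and C1qc, which were high together in WT 3, and of P2ry13, which was low there, all hold the core. That of Lyz2, the member that exceeded the other WT arrays most in WT 3, has 0 matches. The 4 promoters are shown 5′ to 3′ on the gene's strand with the core in capitals.
C1qb, chr4:136886151-136886450, minus strand: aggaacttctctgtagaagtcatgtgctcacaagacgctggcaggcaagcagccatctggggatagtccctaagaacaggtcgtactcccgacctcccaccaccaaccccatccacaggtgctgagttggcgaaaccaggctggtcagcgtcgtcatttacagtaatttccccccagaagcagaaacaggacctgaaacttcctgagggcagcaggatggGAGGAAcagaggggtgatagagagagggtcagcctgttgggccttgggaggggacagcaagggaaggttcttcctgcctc
C1qc, chr4:136892865-136893164, minus strand: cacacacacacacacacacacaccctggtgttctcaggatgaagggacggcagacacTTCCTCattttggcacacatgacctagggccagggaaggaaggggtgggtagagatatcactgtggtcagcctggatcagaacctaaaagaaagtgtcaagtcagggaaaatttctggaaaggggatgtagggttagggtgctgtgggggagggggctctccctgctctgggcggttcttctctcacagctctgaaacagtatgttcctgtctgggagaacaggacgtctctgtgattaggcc
P2ry13, chr3:59210833-59211132, minus strand: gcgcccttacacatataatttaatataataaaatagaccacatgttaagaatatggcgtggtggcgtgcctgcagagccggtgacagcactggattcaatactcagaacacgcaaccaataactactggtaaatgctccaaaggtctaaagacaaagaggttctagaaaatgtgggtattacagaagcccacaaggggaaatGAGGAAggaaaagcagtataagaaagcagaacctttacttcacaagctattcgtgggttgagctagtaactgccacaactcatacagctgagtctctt
Lyz2, chr10:117282223-117282522, minus strand: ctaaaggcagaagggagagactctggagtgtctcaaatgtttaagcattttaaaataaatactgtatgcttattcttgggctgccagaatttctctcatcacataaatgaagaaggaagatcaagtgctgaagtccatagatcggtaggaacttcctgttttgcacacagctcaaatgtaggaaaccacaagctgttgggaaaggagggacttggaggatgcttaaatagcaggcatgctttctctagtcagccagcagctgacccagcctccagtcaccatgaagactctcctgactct

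These promoters are shown for the positions of their genes in WT 3, and the part of PU.1 in those positions was not tested. Forms of the core other than GAGGAA and GAGGAAGT were not searched for. A match describes these letters and is not a binding site.

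Among the receptors for engulfment, Trem2 differed by -0.09 with an interval of -0.33 to 0.15 (-0.08 without WT 3), and its adaptor Tyrobp by -0.16 (0.02 without WT 3). Axl and Mertk, receptor kinases that recognise dying cells, differed by -0.05 and -0.07 with all arrays and by -0.06 and 0.06 without WT 3. Their bridging ligand Gas6 differed by -0.03, and by 0.05 without WT 3. P2ry6, the nucleotide receptor that triggers engulfment, differed by -0.12 with all arrays and 0.07 without WT 3, and the lysosomal protease gene Ctss by -0.04 and 0.15. So Tyrobp, Mertk, Gas6, P2ry6 and Ctss turned sign without WT 3. With all arrays the intervals of these genes, and those of Trem2 and Axl, lay within 1.5-fold of no difference.

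The Fc receptor genes, whose products bind antibody-coated targets, were all highest in WT 3. Fcgr3, chosen after its values were seen, had -1.80, -1.55, -1.48 and -1.69 in R6/2, against -1.79, -1.72, -0.68 and -1.68 in WT. Fcer1g, the common signalling chain, was 1.53 to 1.62 in R6/2, and 1.30 to 1.77 in WT outside WT 3, which had 2.42. Their differences of -0.16 and -0.17 became 0.10 and 0.05 without WT 3. Fcgr1, the high-affinity receptor, was the phagocytosis member with a positive difference in every setting, at 0.21 with all arrays and 0.41 without WT 3 (limma adjusted p = 0.637 and 0.124).

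The 6 genes of innate sensing and costimulation had 0 called, 5 negative differences and a median of -0.07, against 2 negative and 0.08 without WT 3. Their median was 0.01 under median scaling and 0.00 with array weights. Tlr7, an endosomal sensor of single-stranded RNA, had -1.54, -1.53, -1.60 and -1.29 in R6/2, against -1.39, -1.95, -1.76 and -1.71 in WT. Its difference was 0.21 ± 0.13 (limma adjusted p = 0.457) with overlapping groups, 0.19 without WT 3, and its second tested probe gave -0.03. Tlr4, the lipopolysaccharide receptor, had -4.26, -4.12, -4.19 and -4.06 in R6/2, against -3.66, -4.01, -3.77 and -4.22 in WT, a difference of -0.24 ± 0.13 (adjusted p = 0.376) and -0.20 without WT 3. WT 4 lay within the R6/2 range for Tlr4.

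Cd14, the co-receptor of Tlr4, had -1.27, -1.03, -0.99 and -0.88 in R6/2, against -1.24, -1.39, -0.12 and -1.27 in WT, and was chosen after its values were seen. WT 3 lay far above all other arrays, and the difference of -0.04 became 0.25 without it (limma adjusted p = 0.955 and 0.272). Tlr2, a sensor of bacterial lipopeptides, also turned sign, from -0.11 with all arrays to 0.09 without WT 3. Unc93b1, which escorts endosomal Toll-like receptors, had -0.06 and 0.06. Cd86, the costimulatory ligand of T cells, stayed at -0.09 and -0.08.

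The border macrophage and lysozyme genes had 3 tested members, 0 called, and the widest spread. Lyz2, the lysozyme of macrophages and neutrophils, had -4.39, -4.36, -4.18 and -4.05 in R6/2, against -4.51, -4.17, -1.69 and -3.62 in WT. Lyz1, its neighbour on chromosome 10 and the Paneth cell form, had -1.73, -1.95, -1.73 and -1.81 in R6/2, against -1.81, -1.66, 0.65 and -1.03 in WT. Both were highest in WT 3, which exceeded the mean of the other 3 WT arrays 5.32-fold for Lyz2 and 4.42-fold for Lyz1, and next highest in WT 4. The differences were -0.75 ± 0.55 for Lyz2 and -0.84 ± 0.49 for Lyz1 (limma adjusted p = 0.537 and 0.425), and -0.15 and -0.31 without WT 3.

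The lysozyme genes are near-identical copies, so the probes are shown to compare them. They share no stretch longer than 6 bases, and cross-hybridisation between the genes was not measured.
Lyz2, chr10:116719175-116719234, minus strand: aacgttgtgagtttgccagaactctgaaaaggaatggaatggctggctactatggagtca
Lyz1, chr10:116724862-116724921, minus strand: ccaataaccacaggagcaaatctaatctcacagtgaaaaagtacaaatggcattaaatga

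Mrc1, the mannose receptor CD206 of border macrophages, differed by -0.05 with an interval of -0.47 to 0.38, and by 0.10 without WT 3. It was -2.36 to -1.87 in R6/2, and -2.40 to -1.66 in WT. Cd163, a scavenger receptor for haemoglobin of the same cells, was above background on 0 arrays. The border macrophage role was therefore represented by Mrc1 apart from the lysozyme genes.

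Hexdc encodes hexosaminidase D, a glycosidase that is not a marker of microglia. It had -0.45, -0.20, -0.28 and -0.32 in R6/2, against -0.54, -0.12, -0.39 and -0.33 in WT, with overlapping groups. Its difference was 0.03 ± 0.10 (limma adjusted p = 0.901), and 0.02 without WT 3.

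Of the 9 members with more than 1 tested probe, 6 had probes of 1 sign and 3 (Cx3cr1, Csf1r and Tlr7) had both signs. Over the 18 settings, 17 members were negative in all, 6 were positive in all and 22 turned sign in at least 1. In the smallest adjusted p that any setting gave, Cd68 had 0.063, Itgam 0.0707 on its repeat probe and Olfml3 0.0771. The WT arrays had the larger SD for 38 of the 45 members (84.4%, against 63.2% of all genes), and for 27 of 45 (60%, against 43%) without WT 3.

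Other genes of the same biology were read from the same fit, in lists that hold no member, and 0 passed in any list. Among 25 tested other microglial genes, 8 differences were positive and 17 negative, with a median of -0.05 (-0.02 without WT 3). Entpd1, the surface enzyme CD39 that breaks down extracellular ATP, had -2.31, -2.33, -2.16 and -2.35 in R6/2, against -2.01, -1.72, -1.86 and -1.88 in WT. All R6/2 arrays lay below all WT arrays, with a difference of -0.42 ± 0.08 and limma adjusted p = 0.0555, just above the threshold (adjusted p = 0.0822 without WT 3, with the same difference of -0.42). Entpd1 passed it with normexp background correction, with array weights and with the filter on all 8 arrays. Irf8, a transcription factor of microglia, differed by -0.32 ± 0.10 (adjusted p = 0.158), and by -0.25 without WT 3.

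Among 13 tested signals that sustain or restrain microglia, 7 differences were positive and 6 negative, with a median of 0.01 (0.03 without WT 3). Cx3cl1, the neuronal ligand of Cx3cr1, had 6.48, 6.54, 6.31 and 6.21 in R6/2, against 6.83, 7.02, 6.64 and 6.89 in WT. Cd200, a neuronal membrane ligand that restrains myeloid cells, had 2.70, 2.84, 2.75 and 3.06 in R6/2, against 2.25, 2.46, 2.62 and 2.45 in WT. The groups did not overlap for either gene, in opposite directions. The differences were -0.46 ± 0.11 for Cx3cl1 (limma adjusted p = 0.0816) and 0.39 ± 0.11 for Cd200 (adjusted p = 0.125), and -0.53 and 0.45 without WT 3. The genes of the Csf1r ligands differed by 0.02 ± 0.12 for Csf1 and 0.03 ± 0.08 for Il34 (adjusted p = 0.962 and 0.864), and by 0.10 and 0.03 without WT 3.

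The 20 tested genes of the disease-associated state of microglia, such as Apoe, Cst7 and Lpl, had 11 positive and 9 negative differences and a median of 0.04 (0.08 without WT 3). Those of smallest p were Timp2, an inhibitor of matrix proteases (0.18 with all arrays, limma adjusted p = 0.278), and Cd9, a tetraspanin (0.26, adjusted p = 0.322). Without WT 3 Timp2 differed by 0.18 and Cd9 by 0.21. Of 12 further complement and pattern recognition genes, 10 were negative and 6 were highest in WT 3, and the median of -0.14 became 0.01 without WT 3. Cd55, which protects cells from complement, differed by -0.56 ± 0.13 (adjusted p = 0.0807), and Irak4, a kinase below Toll-like receptors, by 0.39 ± 0.21 (adjusted p = 0.390), with -0.56 for Cd55 and 0.56 for Irak4 without WT 3. Of 13 tested cytokine and inflammasome genes 12 were negative, and the median of -0.22 became -0.01 without WT 3. Nos2, the inducible nitric oxide synthase, differed by -0.40 ± 0.11 (adjusted p = 0.118), and by -0.45 without WT 3. Of 13 other border macrophage genes 11 were negative, with a median of -0.18 (-0.07 without WT 3), among them the scavenger receptor Stab1 (-0.38, adjusted p = 0.325) and the carbonyl reductase Cbr2 (-0.35, adjusted p = 0.522). Without WT 3 Stab1 differed by -0.22 and Cbr2 by -0.15.

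Blood cell genes were read beside the members because blood leukocytes share their myeloid genes. In the list of monocyte and neutrophil genes, with 9 tested, the mean centred log2 signal was 1.55 in WT 3 and at most 0.03 on the other 7 arrays. The list did not move as one. Plac8, a gene of myeloid and lymphoid cells, lay 5.06 above the mean of the other 3 WT arrays in WT 3, and the neutrophil calprotectin genes S100a8 and S100a9 lay 4.41 and 4.06 above it, all named after their values were seen. The neutrophil granule genes Elane and Camp lay at -0.12 and 0.20 from that mean, and Ngp and Cxcr2 were not well above background on WT 3. S100a8 had -4.30, -2.95, -4.61 and -3.16 in R6/2, against -4.52, -4.34, 0.13 and -3.98 in WT. Il1b, an inflammatory interleukin, was well above background on WT 3 and on 0 other arrays. The part of these genes in the members' high signal in WT 3 was not tested. The erythroid list had means of -0.24 to 0.55 in R6/2, against 0.06 in WT 3 and -0.56 to -0.22 on the other WT arrays.

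The genes of smallest p in the monocyte and neutrophil list were Itga4, an integrin chain (-0.26, limma adjusted p = 0.318), and Csf3r, the receptor for granulocyte growth factor (-0.15, adjusted p = 0.584), with -0.19 and -0.07 without WT 3. The median of the list was -0.26 with all arrays and 0.20 without WT 3. Among 7 tested lymphocyte genes, Cd4 differed by -0.42 ± 0.10 (adjusted p = 0.0780) and Prf1, the pore-forming protein of killer cells, by -0.18 (adjusted p = 0.417). Without WT 3 these were -0.46 and -0.12, and the median of the list was -0.11, against -0.18 with all arrays. All 7 tested erythroid genes had positive differences, with a median of 0.57 (0.61 without WT 3). Hba-a1, an alpha globin gene, had 6.01, 5.72, 5.93 and 5.46 in R6/2, against 5.25, 5.29, 5.23 and 5.12 in WT, a difference of 0.56 ± 0.12 (adjusted p = 0.0710). Hbb-bs, a beta globin gene, differed by 0.58 ± 0.20 (adjusted p = 0.202), with 0.56 for Hba-a1 and 0.73 for Hbb-bs without WT 3. The part of blood in the members' differences was not tested.

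Markers of other cells in the tissue were read as mean centred signals. Of 9 markers of projection neurons, 6 were called and all 9 were lower in R6/2, with means of -0.76 to -0.18 in R6/2 and 0.26 to 0.52 in WT. Without WT 3, 4 of them were called, and their median was -0.81, against -0.74 with all arrays. Of 7 general neuron markers 0 were called and all 7 differences were negative, with a median of -0.16 (-0.21 without WT 3). Of 7 markers of choroid plexus and ependyma 0 were called and 4 were highest in WT 3, with a median difference of -0.14 (0.13 without WT 3). Their mean ran from -0.79 to 0.72 in R6/2 and from -0.89 to 0.80 in WT. It was 0.72 in R6/2 1 and 0.80 in WT 1, -0.79 in R6/2 2 and -0.89 in WT 2, and 0.69 in WT 3. Of 10 endothelial and mural markers 5 were highest in WT 3, with a median difference of -0.08 (0.03 without WT 3). Of 7 meningeal fibroblast markers 4 were highest there, with a median of -0.05 (-0.03 without WT 3). The astrocyte and oligodendrocyte lists had 0 called and means within -0.20 to 0.16 on all 8 arrays, with medians of -0.07 and 0.10 (-0.08 and 0.06 without WT 3). Their part in the members' values was not tested.

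**Figure D4:**
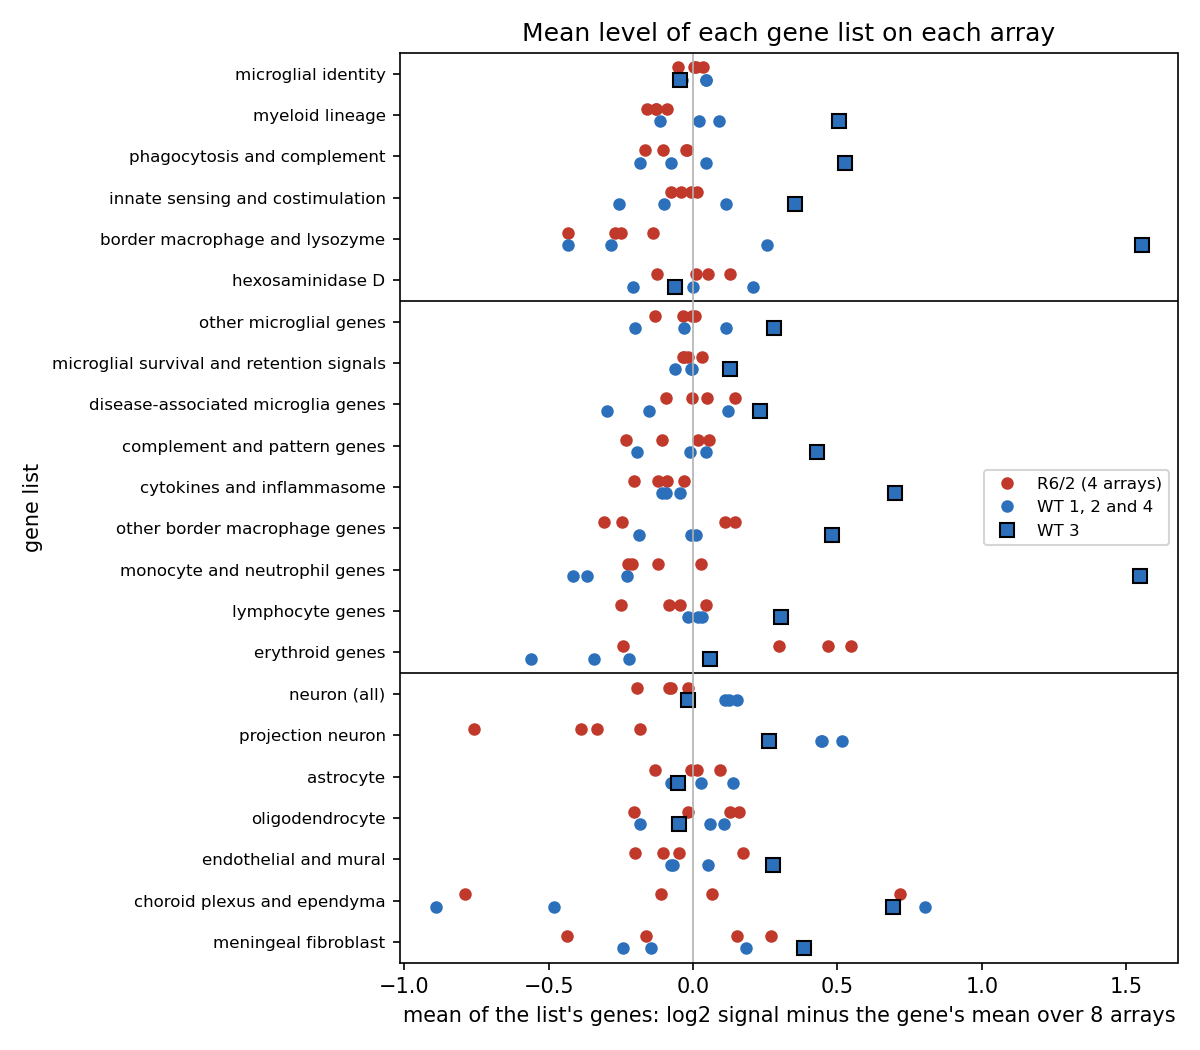
Mean over the tested genes of each list of the log2 signal minus the gene's mean over the 8 arrays, with the R6/2 arrays above the WT arrays of the same list and WT 3 as a square. WT 3 reached 1.55 for monocyte and neutrophil genes and 0.53 for phagocytosis and complement members. The mean of the microglial identity genes stayed between -0.05 and 0.04 on all arrays, with 4 of the 12 genes highest and 5 lowest in WT 3.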

How the data were processed

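Striatal RNA was measured on 1-colour Agilent arrays, 4 R6/2 and 4 WT. Per the file headers, the scanner files come from Agilent Feature Extraction 10.7.3.1 with an mm9 design, and their deposited processed signal is a detrended, background-adjusted intensity, with surrogate values for spots near background and no scaling between arrays. The authors' deposited table holds log2 values equal to the log2 processed signal minus a constant per array (column medians -3.48 to -3.27), a fold without sign and p-values. How the authors chose that constant is not given in the sources used here.

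Here the 75th percentile of each array was subtracted on the log2 scale. Spots with quality marks were left out and the spots of a probe averaged. Probes well above background on at least 4 arrays were fitted in limma 3.58.1 (functions lmFit and eBayes, R 4.3.3), with Benjamini-Hochberg adjustment over 35121 probes and calls under 0.05. The brightest tested probe stood for its gene. Signals of different probes were not compared. The number of arrays limits the precision. The fit was checked on simulated data.

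In each role the 2 members of smallest p were given in full, and in each further list the 2 genes of smallest p; other genes given in full were chosen after their values were seen. A few such genes are not reported here but were kept in each list count. Members and lists were chosen with earlier results of these data known. Arrays with the same replicate number shared a slide column, and their deviations from the group means correlated at 0.133 to 0.356, each array best with its own number, so the numbers were taken to pair the arrays. Alternatives were the replicate block, normexp, quantile or median scaling, other filters, all spots, the authors' values, array weights, the mean of a gene's probes, a plain t-test and leaving out each array.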

Additional observations from a re-analysis of the deposited data

Results flagged for a closer look

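For groups of 4 arrays, the gap from the highest or lowest array to its nearest neighbour, divided by the group's range, was compared with Dixon's 95% critical value. Chance exceeds it in about 1 in 20 groups. For WT 3 the value was 0.906 for Fcgr3, 0.878 for Cd14 and 0.846 for Fcgr1, with WT 3 highest. WT 3 was set apart upwards in this way for 6.67% of members and 1.21% of all genes, and downwards for 0 members and 3.60% of all genes. The mean of the cytokine and inflammasome list gave 0.922 for WT 3, that of the monocyte and neutrophil list 0.905 and that of the lymphocyte list 0.848. Of the 7 tested lymphocyte genes 2 were highest in WT 3. Gzma lay 2.26 above the mean of the other WT arrays there, and the others lay between -0.58 and 0.37 from it. On other arrays, Mertk was high in R6/2 3 (0.868), Fcer1g low in R6/2 4 (0.843) and Cd86 low in WT 2 (0.841).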

How the results depend on the processing

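The count of 0 called members was found in all 20 alternatives, and the members' median difference lay between -0.17 (without WT 2) and 0.01 (without WT 3). The count of called probes was 283 with the replicate block, 981 with normexp, 228 with median scaling, 110 with no filter on dim probes, 1114 with array weights and 264 by the methods' t-test, against 529. The replicate block changed no call of a member or of a gene in the other lists. Leaving out single arrays gave 100 to 505 called probes: 179 without R6/2 1, 109 without R6/2 2, 110 without R6/2 3, 180 without R6/2 4, 169 without WT 1, 113 without WT 2, 505 without WT 3 and 100 without WT 4. Of the called probes 129 were higher and 400 lower, against 210 and 365 with quantile normalization and 101 and 127 with median scaling. Among genes of the other lists, 4 were called with normexp (Cx3cl1, Hba-a1, Cd4 and Entpd1), 3 with array weights (Cx3cl1, Hba-a1 and Entpd1), 1 with the filter on all 8 arrays (Entpd1) and 0 to 1 with an array left out, namely Cd55 without R6/2 1 and Hba-a1 without R6/2 4. The difference of Hexdc was -0.03 to 0.11 with an array left out, negative without R6/2 2 (-0.005) and WT 1 (-0.031). With the repeat-bearing probes left out, an alternative chosen after seeing the data, Itgam differed by -0.22 and Siglech by -0.41, and neither was called. Siglech had -0.15 with its repeat probe. On the probe that then stood for Siglech the groups did not overlap. WT 1 had 2.08 there, and the other WT arrays 1.19 to 1.34. On the further Siglech probe without a repeat the groups overlapped, with a difference of -0.32. All arrays shared 1 slide and 1 scan, so a slide or scan block could not be fitted.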
